A study of Mus musculus with 2 samples.

Results

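The Mir302/Mir367 and Mir290 clusters hold the microRNAs best known from pluripotent stem cells, and their genes were read out in mouse embryonic forebrain. The members were chosen by name, as the annotated genes Mir302a, Mir302b, Mir302c, Mir302d and Mir367 on chromosome 3 and Mir291a, Mir291b, Mir293, Mir294 and Mir295 on chromosome 7. All 10 were found among the 1973 microRNA genes of each table, 5 in each cluster. The data are small RNA sequencing libraries of RNA under 30 nucleotides from forebrain of mouse embryos of strain B6NCrl at 13.5 days, with males and females pooled. There was 1 group, of 2 libraries that the labels call biological replicates 1 and 2, with no treatment and no altered gene. They came from separate samples with 1 donor identifier, and nothing says which embryos went into each. The spread between them may therefore be partly technical.

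In pluripotent cells both clusters are transcribed into long precursors that are cut into hairpins and then into mature microRNAs of the 5p and 3p arms. Target choice rests largely on the seed, bases 2 to 8 of the mature strand. The 3p strands of most of these genes share a seed that represses inhibitors of the cell cycle and genes of differentiation. The Mir290 cluster is typical of the preimplantation embryo and naive embryonic stem cells, and the Mir302/Mir367 cluster of the epiblast after implantation. Mouse embryos without the Mir302/Mir367 cluster fail to close the neural tube. Both clusters are known to be turned down as tissues differentiate.

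The 3p strands are shown because they hold what the clusters share and where single strands differ. The lines give RefSeq sequences (GRCm38.p6), 5′ to 3′, with the seed in capitals. All 10 members had a mature entry in that table and 9 a 3p entry. There is no entry for miR-302a-3p.
miR-302b-3p: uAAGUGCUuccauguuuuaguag
miR-302d-3p: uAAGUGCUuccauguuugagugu
miR-302c-3p: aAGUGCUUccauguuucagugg
miR-367-3p: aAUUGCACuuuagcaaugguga
miR-291a-3p: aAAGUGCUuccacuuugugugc
miR-294-3p: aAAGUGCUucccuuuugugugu
miR-295-3p: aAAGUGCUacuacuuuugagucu
miR-291b-3p: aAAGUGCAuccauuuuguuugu
miR-293-3p: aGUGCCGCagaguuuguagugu

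One seed, AAGUGCU, joined the clusters. It was held by miR-302b-3p and miR-302d-3p on chromosome 3 and by miR-291a-3p, miR-294-3p and miR-295-3p on chromosome 7, and by no other of the 1738 mature entries. The listed miR-302c-3p starts 1 base later, so that its seed is AGUGCUU, and miR-293-3p has the seed GUGCCGC. The letters AGUGC, read on the mature strand only, lay within the first 8 bases of 8 of the 9 listed 3p strands and of 34 of all 1738 mature entries (1.96%). The exception, miR-367-3p, has the seed AUUGCAC of miR-25, miR-32, miR-363, miR-92a and miR-92b, which 7 mature entries held.

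Among the listed 3p strands, runs over 11 bases were shared by Mir302 strands only. The strands miR-302b-3p and miR-302d-3p shared an unbroken run of 17 bases, and miR-302c-3p shared 16 with either of them. Between clusters the longest run was 11 bases, between miR-291a-3p and each of miR-302b-3p, miR-302c-3p and miR-302d-3p. Within the Mir290 cluster the longest was also 11, between miR-291a-3p and miR-294-3p. Of the Mir290 strands only miR-291a-3p tied in this way. For the others the longest run was slightly longer within the cluster than with the listed Mir302 strands. It was 11 against 10 bases for miR-294-3p and 8 against 7 for miR-295-3p. For miR-291b-3p it was 7 against 6, and for miR-293-3p 6 against 5. Reads that start at the first base of miR-302b-3p match the Mir302a hairpin for 18 bases, and those of miR-302d-3p match Mir302b for 17. A read shorter than these runs cannot be given to 1 gene, and reads that fit several places stand in a row of their own in the tables. They made up 40.6% of the reads in replicate 1 and 43.9% in replicate 2. How many came from these genes was not tested. No run over 11 bases was shared by any listed strand of Mir293, Mir294, Mir295 or Mir367 with another microRNA. The 5p strands of Mir291a and Mir291b shared 20. Matches outside annotated microRNAs were not searched.

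Replicate 1 had 4117752 counts on microRNA genes and replicate 2 had 3908953. Values are counts on the strand of the gene, or CPM, scaled to 1000000 gene counts in a library, with mean ± SD over n = 2 libraries. Detection was set at 10 counts or more in both libraries, which 377 of 1973 genes reached. A count of 0 allows up to 3 counts, or 0.729 CPM in replicate 1 and 0.767 in replicate 2. Of the microRNAs of neural progenitors and neurons 8 of 10 measured were detected, Mir92b at 13430 ± 660 CPM and Mir137 at 7852 ± 1559. Detection alone does not mark the tissue. It was also reached by 7 of 7 genes of choroid plexus and multiciliated cells and 3 of 3 of sensory organs. Of the Hox-embedded genes, of hindbrain and trunk, 4 of 6 reached it. Mir124a-1 had 8 and 6 counts, Mir124a-2 20 and 19, and Mir124a-3 3 and 3. Reads that fit several places are not in these counts, so low counts of the Mir124a genes do not show that their microRNA was rare. Mir9-1 was not measured.

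The Mir302/Mir367 cluster was present at a low level and the Mir290 cluster was close to the limit of detection. Together the 5 Mir302/Mir367 genes reached 4908 counts in replicate 1 and 3132 in replicate 2. As shares of the gene counts these were 0.119% (95% Wilson interval 0.116 to 0.123) and 0.0801% (0.0774 to 0.083), with a mean of 0.0997% ± 0.0276. The 5 Mir290 genes together had 72 and 61 counts, or 0.00175% (0.00139 to 0.0022) and 0.00156% (0.00121 to 0.002), with a mean of 0.00165% ± 0.000133. In the same library the Mir302/Mir367 count was 68.2 times the Mir290 count in replicate 1 (exact 95% interval 54.0 to 87.3) and 51.3 times in replicate 2 (39.9 to 67.3). The ratio was 59.8 ± 11.9, and it does not depend on depth. PCR copies of a molecule are counted as separate reads, so intervals describe counting error alone. Without Mir302a and Mir302b, whose hairpins share 20 bases with each other, the mean ratio was 22.5. This fall follows by construction. In replicate 1 these genes gave 38.3% and 24.6% of the Mir302/Mir367 count, and all Mir290 members were kept. In bulk tissue, fewer cells with a microRNA and less of it per cell cannot be told apart.

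**Figure D1:**
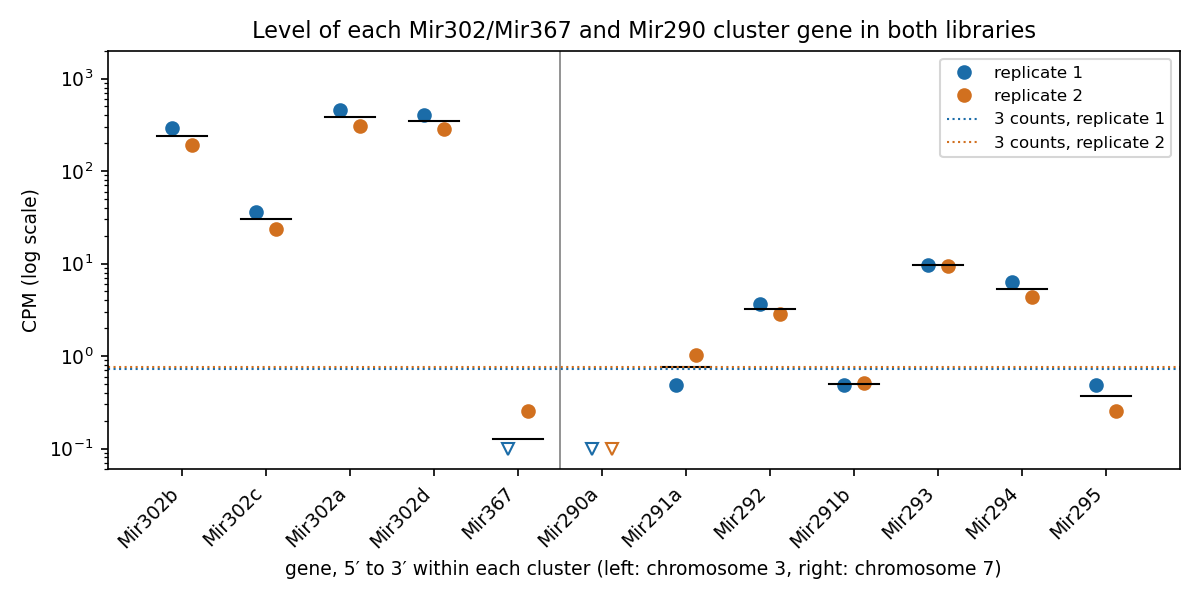
Level of every measured gene of both clusters in each library, in CPM on a log scale, with the genes in 5′ to 3′ order. Circles are libraries, black bars their mean, open triangles libraries with 0 counts (drawn at the bottom of the axis), and dotted lines the level of 3 counts. Mir302a to Mir302d lie between 23.5 and 456 CPM, and the highest Mir290 gene, Mir293, stays below 10 CPM.

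Within the Mir302/Mir367 cluster Mir302a and Mir302d led. Mir302a (ENSMUSG00000065552.1; GRCm38 chromosome 3, 127545496 to 127545564) had 1878 counts in replicate 1 and 1192 in replicate 2, which is 456 and 305 CPM, or 381 ± 107. It ranked 130th by mean CPM of 1973 genes, of which 1253 had 0 counts in both libraries. Mir302d (127545624 to 127545689) had 1671 and 1108 counts, or 345 ± 86.5 CPM. The gap between these leading genes, 35.9 CPM, was smaller than either SD. Within a library Mir302a was 1.12 times Mir302d in replicate 1 (exact 95% interval 1.05 to 1.20) and 1.08 times in replicate 2 (0.99 to 1.17), so their order was not resolved in replicate 2.

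Mir302b (127545228 to 127545301) followed with 1209 and 739 counts, or 241 ± 73.9 CPM. Mir302d was 1.38 times Mir302b in replicate 1 (1.28 to 1.49) and 1.50 times in replicate 2 (1.36 to 1.65), so that this order held in both libraries. Mir302c (127545363 to 127545430) was far lower, with 150 and 92 counts, or 30.0 ± 9.12 CPM. Mir302b exceeded it 8.06-fold (6.80 to 9.62) and 8.03-fold (6.46 to 10.1), nearly the same ratio in either library.

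Mir367 (127545733 to 127545807), the last hairpin of the cluster and the only one listed with the seed AUUGCAC, had 0 counts in replicate 1 and 1 in replicate 2. In replicate 1 Mir302a was 626 times the level of 3 counts, and the exact 95% interval of its ratio to Mir367 began at 509. In replicate 2 the ratio was 1192, with an exact 95% interval from 214 to 47120. At this depth Mir367 was not told apart from absence. Its mature strands shared no run over 11 bases with another microRNA of the RefSeq table. Copies elsewhere in the genome were not searched, so a loss of its reads to several places was not tested. The 4 other hairpins lie within the same 580 bases (127545228 to 127545807), all on the plus strand, inside an intron of Larp7. Larp7 encodes an RNA-binding protein of the 7SK complex and runs on the minus strand. The order of levels did not follow the order of the genes, which is Mir302b, Mir302c, Mir302a, Mir302d and Mir367 from 5′ to 3′.

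The make-up of the Mir302/Mir367 cluster hardly differed between the libraries. Of the cluster count, Mir302a gave 38.3% (95% Wilson interval 36.9 to 39.6) in the first library and 38.1% (36.4 to 39.8) in the other. Mir302d gave 34.0% (32.7 to 35.4) and 35.4% (33.7 to 37.1), Mir302b 24.6% (23.4 to 25.9) and 23.6% (22.1 to 25.1), and Mir302c 3.06% (2.61 to 3.58) and 2.94% (2.40 to 3.59). The intervals of the libraries overlapped for each of the 5 genes.

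**Figure D2:**
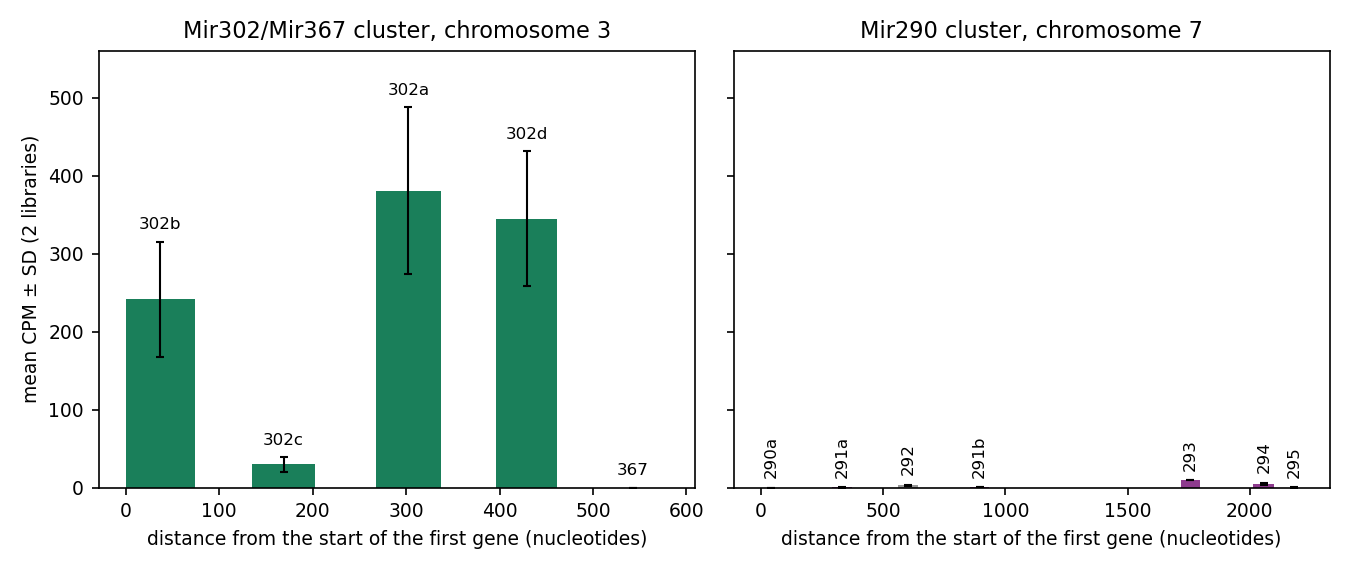
Mean CPM ± SD over 2 libraries of each gene, drawn at its distance from the start of the first gene of its cluster, with bar width equal to gene length and the same linear axis in both panels. Green bars are Mir302/Mir367 members, purple bars Mir290 members and grey bars other measured genes of the Mir290 cluster. Mir302a reaches 381 CPM, and Mir293 in the right panel 9.59 CPM.

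In the Mir290 cluster Mir293 led. The gene (ENSMUSG00000078035.1; chromosome 7, 3220343 to 3220422) had 40 counts in replicate 1 and 37 in replicate 2, or 9.59 ± 0.176 CPM, and ranked 306th. Mir294 (3220641 to 3220724), known for its action on the cell cycle of embryonic stem cells, had 26 and 17 counts, or 5.33 ± 1.39 CPM. Mir293 was 1.54 times Mir294 in replicate 1 (exact 95% interval 0.916 to 2.63) and 2.18 times in replicate 2 (1.20 to 4.12), so the order of these genes was resolved in replicate 2 alone.

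The other Mir290 members stayed under the detection rule. Mir291a had 2 and 4 counts, Mir291b 2 and 2, and Mir295 2 and 1, with means between 0.371 and 0.754 CPM. Their order cannot be read at this depth. Of the cluster genes outside the members, Mir292 had 15 and 11 counts (3.23 ± 0.586 CPM), and Mir290a, the first hairpin, 0 and 0. Adding both moved the ratio of the clusters to 56.4 in replicate 1 and 43.5 in replicate 2. The Mir290 members span 3218919 to 3220841 on the plus strand and overlap an exon of the innate immune gene Nlrp12, annotated on the minus strand. No opposite-strand read was counted on any of the 10 members in either library.

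The Mir290 gene with the most counts is not one listed with the shared seed. Mir293, whose 3p seed is GUGCCGC, had more counts than the 3 AAGUGCU genes Mir291a, Mir294 and Mir295 together in both libraries, at 40 against 30 and 37 against 22. No interval was computed for these small counts, so this order is not taken as resolved. Even Mir302c, the lowest detected gene of the Mir302/Mir367 cluster, stood 3.75 times above Mir293 in replicate 1 (exact 95% interval 2.63 to 5.46) and 2.49 times in replicate 2 (1.68 to 3.75). The tables count genes and not arms, so counts cannot be split between 5p and 3p strands.

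Genes with related seeds outside the clusters held far more counts as groups, although not each of them stood above Mir302a. The Mir17 relatives (Mir17, Mir20a, Mir20b, Mir93, Mir106a and Mir106b), cell-cycle microRNAs whose seed AAAGUGC is shifted by 1 base from AAGUGCU, are shown by their leading gene, and the relatives of Mir367 by theirs, Mir92b.
miR-17-5p: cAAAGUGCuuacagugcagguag
miR-92b-3p: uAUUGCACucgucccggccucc
The summed level of the Mir17 relatives was 109786 ± 4852 CPM, 89.2 times the Mir302/Mir367 count in replicate 1 and 141 times in replicate 2. Mir17 alone had 199902 and 193219 counts, 106 and 162 times Mir302a. The genes with the seed of miR-367-3p (Mir25, Mir32, Mir363, Mir92-1, Mir92-2 and Mir92b) summed to 20392 ± 723 CPM, while Mir367 had 1 count in all. Of these 6 genes, Mir92b had 57224 and 50675 counts and Mir92-1 19810 and 19495, which made up most of the sum. Mir363 (741 ± 146 CPM) and Mir25 (748 ± 20.6), like Mir20b among the Mir17 relatives (750 ± 15.9), stood above Mir302a, at 381 ± 107. Mir32 (313 ± 0.951) and Mir92-2 (260 ± 21.6) had lower means than Mir302a and Mir302d. For Mir32 the order turned in replicate 2, where it had 314 CPM against 305 for Mir302a and 283 for Mir302d. Mir92-1 and Mir92-2 share the mature name miR-92a-3p, and reads that fit both genes are not in their counts. Their levels and the sum may therefore be too low.

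Every detected Mir302 gene was lower in replicate 2 than in replicate 1. Each gene was tested between the libraries by the exact binomial test (two-sided, library sizes scaled by TMM), with Benjamini-Hochberg adjustment over 475 genes. The test sets 1 library against another and says nothing of conditions. Of the 10 members 6 had the 10 counts in total that the test asked for. Mir302a, Mir302b, Mir302c and Mir302d passed an adjusted p under 0.05, all lower, and Mir293 and Mir294 did not. Over all genes tested 38.9% passed in either direction and 20.8% passed as lower in replicate 2, so that a call is common here. The 4 called genes are neighbours in 1 cluster and do not count as separate cases. The median log2 ratio of the 6 tested members was -0.45, against 0.016 over all genes tested. By cluster it was -0.50 for the 4 tested Mir302 genes and -0.18 for the 2 tested Mir290 genes, of which 1 was lower.

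Mir302a had a log2 ratio of replicate 2 over replicate 1 of -0.47 (exact 95% interval -0.58 to -0.37, exact binomial adjusted p = 3.70e-18). Mir302b stood at -0.53 (-0.66 to -0.39, exact binomial adjusted p = 1.95e-14), and Mir302d at -0.41 (-0.52 to -0.30, exact binomial adjusted p = 1.10e-12). Mir302c, with fewer counts, stood at -0.52 (-0.91 to -0.14, exact binomial adjusted p = 0.0198). All 4 values lay within a span narrower than the interval of Mir302c alone. Among the 377 detected genes 48 (12.7%) had a ratio at or below that of Mir302d.

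These calls rest on counting error alone. With the spread of the libraries themselves as the dispersion (a biological coefficient of variation of 14.3%), an edgeR exact test called 0 of the 6 tested members, with 0 at an unadjusted p under 0.05. The unadjusted edgeR exact p was 0.0808 for Mir302b and 0.114 for Mir302a. That dispersion came from the same difference, so few calls follow by construction, and this test called 1 of 475 genes.

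**Figure D3:**
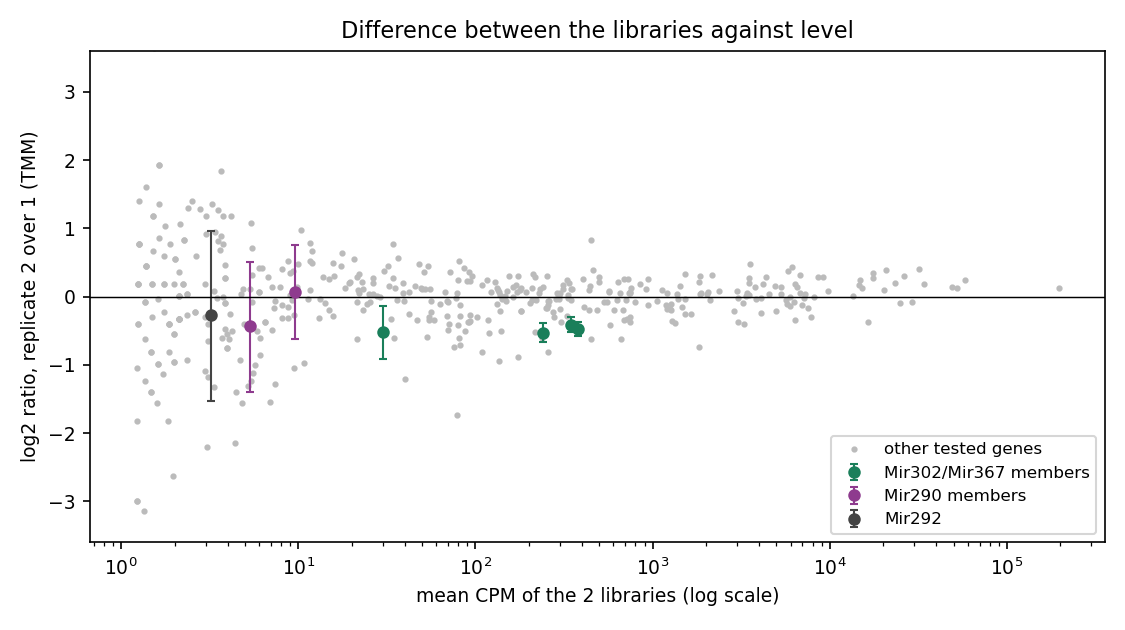
Log2 ratio of replicate 2 over replicate 1 after TMM against mean CPM on a log scale, for the tested genes with counts in both libraries. Grey points are other genes, and coloured points the members and Mir292 with exact 95% intervals for counting error. The 4 Mir302 genes lie between -0.53 and -0.41, and the intervals of Mir293 and Mir294 include 0.

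For Mir293 the log2 ratio was 0.071 (-0.61 to 0.75, exact binomial adjusted p = 0.968), and its sign flipped to -0.037 with library totals in place of TMM. For Mir294 it was -0.43 (-1.40 to 0.51, exact binomial adjusted p = 0.535), close to the value of the Mir302 genes but with 43 counts in all. The summed counts gave -0.46 for Mir302/Mir367 (-0.53 to -0.40) and -0.055 for Mir290 (-0.57 to 0.46). A two-sided Fisher's exact test of cluster by library, free of normalization, gave an odds ratio of 0.753 (95% interval 0.526 to 1.08, exact p = 0.108). A difference between the clusters in how they changed between libraries was not detectable at this depth. Against the Mir17 relatives, with far more counts, that odds ratio was 0.631 (0.603 to 0.661), a comparison chosen after the data had been seen and a value inside the former interval.

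Lists of other cell types and regions also held genes that were lower in replicate 2. Over all 475 genes tested, 48.2% had a log2 ratio below 0, and 20.8% passed the test as lower. The choroid plexus and multiciliated list was lower in replicate 2 in 6 of 7 genes, with 4 past the exact binomial test, and its summed level was 9799 CPM in replicate 1 and 7000 in replicate 2 (log2 ratio -0.38). The Hox-embedded list, of hindbrain and trunk, was lower in 5 of 5 tested genes of 6, with 2 past the test, at 446 and 293 CPM (-0.49). The sensory organ list was lower in 3 of 3, all past the test, at 382 and 186 CPM (-0.93). The neural list was at 27236 and 23525 CPM (-0.10), with 4 of 9 tested genes lower and 3 past the test, all 3 lower. Mir92b, at a log2 ratio of 0.0084, had the most counts in that sum. The 3 neural genes past the test were Mir128-2 at -0.41, Mir128-1 at -0.37 and Mir137 at -0.30, beside -0.41 for Mir302d. No gene of these lists had 0 counts in both libraries. These lists were examined with earlier results of the same libraries known, and their part in the Mir302 difference was not tested.

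**Figure D4:**
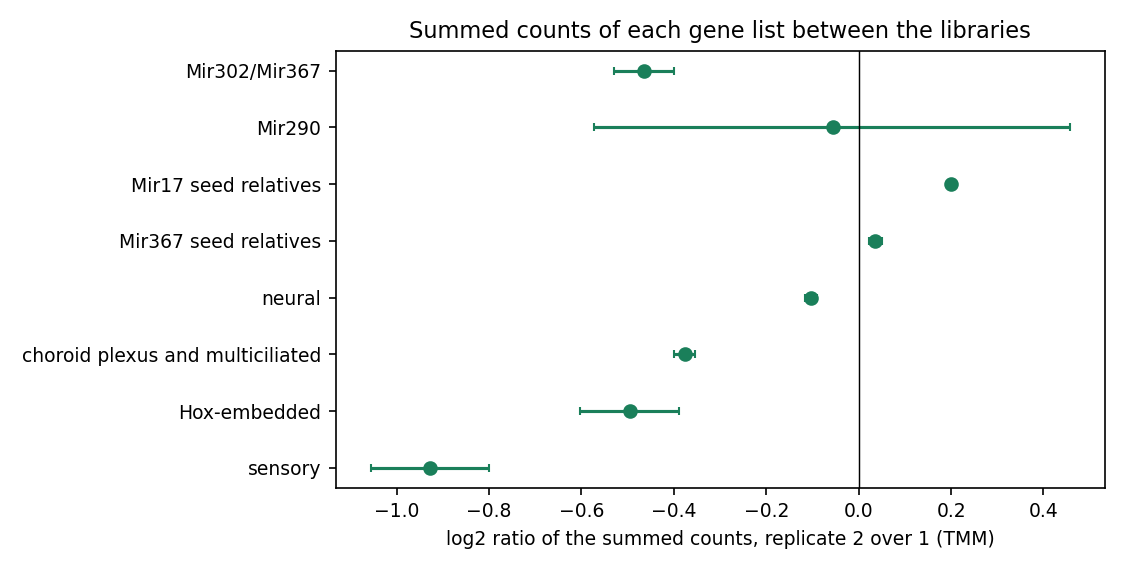
Log2 ratio of the summed counts of each gene list, replicate 2 over replicate 1 after TMM, with exact 95% intervals for counting error only. Mir302/Mir367 lies at -0.46, beside the choroid plexus (-0.38) and Hox-embedded (-0.49) lists, and the interval of Mir290 includes 0.

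The 5 genes outside the clusters nearest to Mir302a in log2 CPM over both libraries (Euclidean distance, 2 libraries) were Mir665, Mir760, Mir7-2, Mir138-1 and Mir669o. Mir665 was nearest, at a distance of 0.0911 and with 1766 and 1175 counts, and Mir669o the farthest of the 5, at 0.346. With 2 libraries this likeness covers level and 1 ratio only.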

How the data were processed

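The deposited files give raw read counts for each gene and library on either strand, the strand of the gene and the opposite strand. The read-me texts deposited with them name the build mm10 and annotation M4. Names of the aligner and counter were not given in the sources used here. Summary rows (in replicate 1 16.7% unmapped, 40.6% multi-mapped and 3.99% unassigned reads, in replicate 2 15.0%, 43.9% and 3.71%) entered neither library sizes nor tests. Strand-of-gene counts were used.

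Symbols and positions came from GENCODE M21 on the same build, which matched 1894 of 1973 identifiers, and mature sequences from RefSeq (GRCm38.p6). TMM factors and the dispersion came from edgeR 4.0.16 in R 4.3.3. Tests and intervals were computed with scipy 1.17.1, and the binomial test was tested on simulated data. With 1 group no test between conditions was possible. Alternatives were library totals, DESeq2 1.42.0 size factors, other count minimums, either strand, another denominator, genes with copies left out and each replicate left out. Named genes were all members, the other measured Mir290 genes, up to 6 genes of each list of seed relatives, up to 4 leading genes of each other list and the 5 genes nearest to Mir302a. The Mir124a genes, Mir9-1 and Mir128-2 were named outside this rule, with their values known. Members and lists were chosen with earlier results of these data known.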

Additional observations from a re-analysis of the deposited data

How the results depend on the processing

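With all reads of the table as the denominator, the mean share was 0.0381% for the Mir302/Mir367 members and 0.00063% for the Mir290 members. Leaving out Mir302a and Mir302b, whose hairpins share 20 bases, an alternative chosen after seeing the data, gave a Mir302/Mir367 share of 0.0375% and a cluster ratio of 22.5. Both values fall by construction, since only Mir302/Mir367 counts were taken out. The edgeR exact test with the libraries' own dispersion called 0 members (0 at an unadjusted p under 0.05) and 1 gene over the table (31 at an unadjusted p under 0.05), against 4 and 185 with the exact binomial test. The log2 ratio of Mir293 became -0.037 with library totals. Leaving out 1 replicate gave shares from 0.0801% to 0.119% for Mir302/Mir367 and from 0.00156% to 0.00175% for Mir290, and ratios of the clusters from 51.3 to 68.2. With library totals, DESeq2 size factors or other count minimums, 4 members were called lower. With library totals 54 genes were called higher and 141 lower, with DESeq2 size factors 67 and 118, and with TMM 86 and 99. With at least 1 count in each library 9 of 10 members were detected, and with at least 50, 4. Depth limits the Mir290 cluster and Mir367, where single genes have 0 to 40 counts.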
